A study of Mus musculus with 6 samples.

Results

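The chemokine ligand genes were described in 3T3-L1 cells, an established mouse line of embryonic fibroblasts that can be turned into adipocytes. Members were all genes whose symbol in the array's annotation is Ccl, Cxcl, Cx3cl or Xcl followed by a number, taken from probe sets with 1 symbol, and where a symbol had several probe sets the one with the highest mean was used. This gave 34 members of 19938 genes. A further 7 probe sets that carry a chemokine symbol together with other symbols were not used. Total RNA was measured on Affymetrix whole-transcript arrays, with 1 array for each of 6 conditions, so nothing measures how much cultures of 1 condition vary.

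The 3 fibroblast arrays came from undifferentiated cells in medium with 10% calf serum, either untreated or exposed for 3 days to adenine or AICAR, each at 0.5 mM. The 3 adipocyte arrays came from cells grown to confluence and induced for 3 days in 10% fetal bovine serum with dexamethasone (1 µmol/l), IBMX (115 µg/ml) and insulin (1 µg/ml), without a compound or with adenine or AICAR at 0.5 mM, and then kept for 3 days in medium with insulin and without the compound. Adenine is a purine base, and AICAR is a nucleoside that cells convert to an analogue of AMP. The 2 states therefore differ in serum, induction drugs and time since the compound was withdrawn, and these cannot be told apart from differentiation. All 6 arrays are of 1 cell line, and the labels do not say whether more than 1 culture was grown per condition.

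Chemokines are small secreted proteins that guide migrating leukocytes through G protein-coupled receptors. They are named by the spacing of their first cysteines as CC, CXC, CX3C or XC ligands. Many CC and CXC genes are induced in stromal cells by NF-kB and by interferon, whereas others, such as Cxcl12, are made constitutively. Fat tissue is known for Ccl2, which draws monocytes into it in obesity.

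Of the 34 members, 13 reached the median of gene means (log2 5.87) with their own mean over the 6 arrays and 21 lay below it. The 13 were the CC genes Ccl2, Ccl5, Ccl7, Ccl8, Ccl9, Ccl11 and Ccl25, the CXC genes Cxcl1, Cxcl5, Cxcl10, Cxcl12 and Cxcl13, and Cx3cl1. The dimmest of them was Ccl11 (mean 6.02), and the brightest member outside was Ccl19 (5.53). For 8 of the 13 the means of both states reached 5.87. The other 5 reached it in 1 state only, Ccl8, Ccl11, Cxcl5 and Cxcl10 in fibroblasts and Cxcl13 in adipocytes, so a difference between states was built into their selection. Counts are therefore given first over all 34 members.

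**Figure D1:**
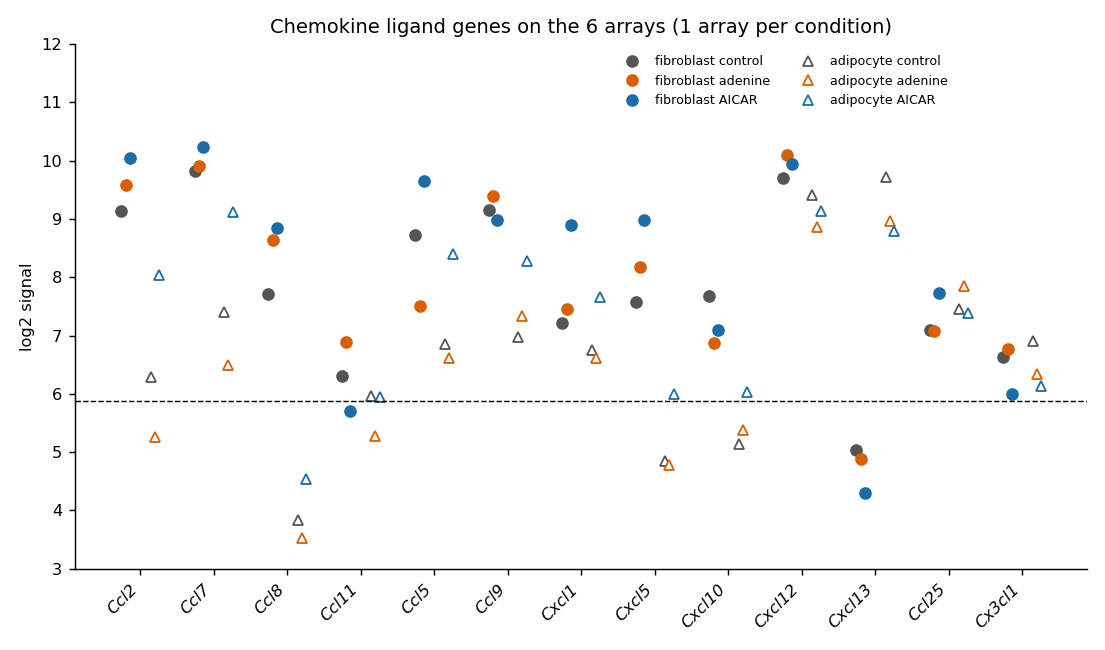
The log2 signal of the 13 brighter chemokine ligand genes on each of the 6 arrays, with filled circles for fibroblasts, open triangles for adipocytes and colour for the medium; the dashed line is the median of gene means (5.87). Ccl2, Ccl7, Ccl8, Ccl9, Cxcl5, Cxcl10 and Cxcl12 have all 3 triangles below all 3 circles, and Cxcl13 has them all above.

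The labelled states were checked on their markers. Of 12 adipocyte marker genes above the median of gene means, 11 were higher in adipocytes by the additive model described next and 0 were lower. Of 14 fibroblast markers 2 were lower and 0 were higher. Of all genes above that median 5.22% were higher and 5.37% lower. Adipoq, Cd36, Plin1, Retn, Cidec and Cebpa lay below it (5.87) on every fibroblast array, so a rise was built into their selection. Fap, 1 of the fibroblast markers that fell, lay below it on every adipocyte array, so its fall was too. Lep and Slc2a4 of the adipocyte list and Lum of the fibroblast list did not pass the filter. Of 19 leukocyte markers analysed, only Cd68 and Lyz2 passed the filter. Cd68 was at 7.44 in AICAR fibroblasts, against 5.95 in control fibroblasts (1.49), and between 5.51 and 5.95 on all arrays but that of AICAR fibroblasts. Ptprc (CD45) lay between 3.86 and 4.32 on the 6 arrays, the macrophage gene Adgre1 between 3.47 and 3.81 and Csf1r between 4.94 and 5.04. All 3 are below the array medians of all probe sets (5.41 to 5.49), and their ranges in the states overlapped. Other dim markers were higher in adipocytes. S100a8 differed by 0.78 in control medium, 1.39 with adenine and 0.27 with AICAR. Nkg7 lay between 4.20 and 4.52 in fibroblasts and between 4.56 and 4.79 in adipocytes. Ly6g and S100a9 were slightly lower in adipocytes in control medium and with adenine, but not with AICAR. The log2 of the summed signal of the leukocyte list was 9.38 to 9.52 in fibroblasts and 8.87 to 9.02 in adipocytes. Such a sum weights bright genes most, and Lyz2 and Cd68 were the brightest of the list on every fibroblast array. It therefore does not show a fall of the list as a whole. Lyz2, a lysozyme gene of myeloid cells, was the only leukocyte marker that fell in adipocytes in the additive model (-2.84, SE 0.50, limma adjusted p = 0.0283). It lay between 7.10 and 8.12 in fibroblasts and between 3.81 and 5.57 in adipocytes. Its adipocyte values were all below 5.87, so it passed the filter through the fibroblast arrays and a fall was built into its selection. Cd68 did not pass (-0.75, limma adjusted p = 0.143). The part of Lyz2 and Cd68 in the chemokine values was not tested. In RNA from whole cultures, fewer cells of a kind and less RNA per cell cannot be told apart.

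The first comparison asked how the chemokine genes differ between the cell states. Without compounds, 8 of the 34 members were at least 2-fold lower in adipocytes, against 2.57% of all genes, and 1 was at least 2-fold higher, against 1.68%. With adenine in both states the counts were 8 lower (4.89% of all genes) and 1 higher (3.86%), and with AICAR 8 lower (2.79%) and 2 higher (3.27%). Ccl2, Ccl7, Ccl8, Cxcl5 and Cxcl10 were at least 2-fold lower in all 3 media, and Cxcl13 was at least 2-fold higher in all 3. Among the 13 brighter members alone the counts were 7, 8 and 7 lower and 1 higher in each medium, where 4.27%, 8.47% and 4.6% of the 9969 tested genes were lower and 2.88%, 6.75% and 5.93% higher. The median difference of all 34 members was -0.18 without compounds, -0.17 with adenine and -0.21 with AICAR, beside 0.08, 0.01 and -0.04 over all genes. Among the 13 brighter members it was -1.86, -1.50 and -1.07, a value that their selection bears on.

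**Figure D2:**
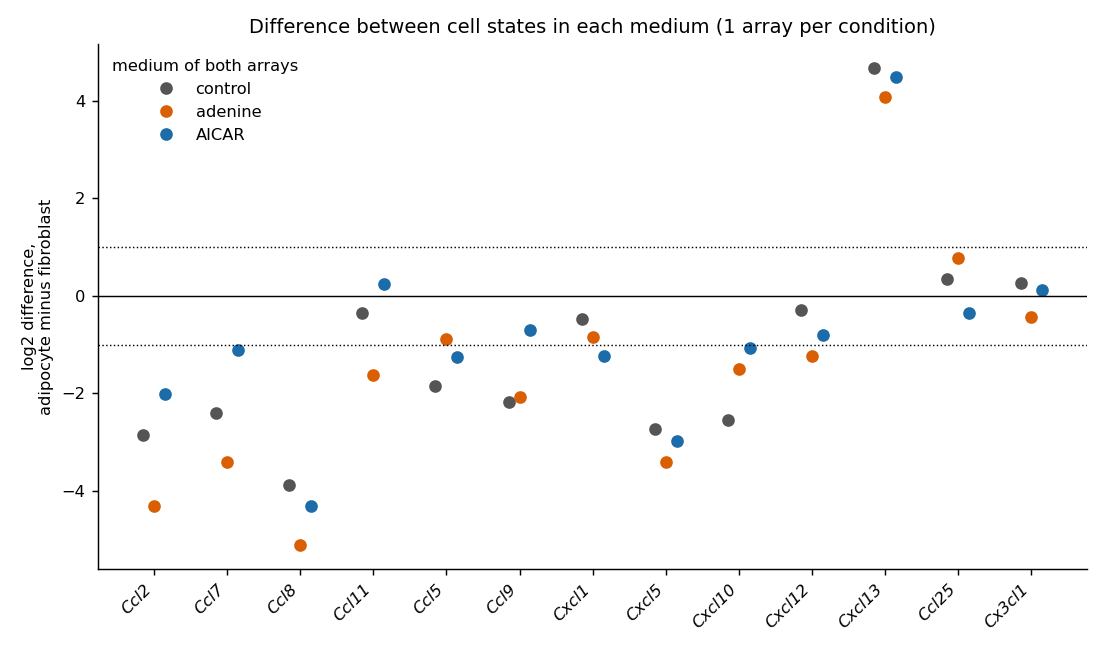
The log2 difference between the adipocyte and the fibroblast array of the same medium, for the 13 brighter chemokine ligand genes; dotted lines mark a 2-fold difference. The points of Cxcl13 lie between 4.08 and 4.68, those of Ccl8 between -5.11 and -3.87, and those of Ccl25 and Cx3cl1 on both sides of 0.

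State was tested in limma by an additive model of state and medium fitted to the 6 arrays. Its error is the departure from additivity between conditions, with 2 residual degrees of freedom, and not the spread between cultures. Fitted to all 19938 genes, the model called 8 of the 34 members lower in adipocytes at an adjusted p under 0.05, where 3.03% of genes were lower, and 1 higher, where 2.73% were. Those that fell were Ccl2, Ccl5, Ccl7, Ccl8, Ccl9, Cxcl1, Cxcl5 and Cxcl10, and Cxcl13 rose. The fit to the 9969 tested genes, which gives the adjusted p-values below, called these 9 genes too (5.37% of tested genes were lower and 5.22% higher). Of the 9, Ccl8, Cxcl5, Cxcl10 and Cxcl13 reached the median of gene means in 1 state only, so the count among the 13 brighter members is no support for a difference. Without the pair of control arrays, 0 of the 9 calls were kept and 0 of all tested genes passed in limma, although 10 of the 13 members and 2095 of 9969 genes had an unadjusted p under 0.05. When the adenine pair was left out 6 of the 8 lower calls were made, where 2.6% of tested genes were lower. When the AICAR pair was left out 7 were made, where 5.33% were lower. Cxcl13 was called both times, where 2.53% and 3.91% of tested genes were higher.

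Ccl2, Ccl7, Ccl8 and Ccl11 are neighbours in a group of CC genes on chromosome 11 (chr11:82035577-82179812, mm10, named GRCm38.p6 in RefSeq), in the order Ccl2, Ccl7, Ccl11, Ccl12, Ccl8 and Ccl1. Their proteins attract monocytes and, for Ccl11, eosinophils. Ccl2 had log2 signals of 9.13, 9.59 and 10.05 in control, adenine and AICAR fibroblasts, and of 6.29, 5.27 and 8.03 in the adipocytes of the same media. Every adipocyte array was thus below every fibroblast array, with the AICAR adipocytes nearest to them. The fall in adipocytes was 3.06 on the log2 scale (SE 0.42, limma adjusted p = 0.0167). The difference was smallest with AICAR (-2.01, or 4.04-fold) and largest with adenine (-4.32, or 20.0-fold). The adenine adipocyte signal lay below the array medians (5.41 to 5.49), so the size of the adenine fold depends on the background correction.

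Ccl7 followed the same order of arrays. Its signals were 9.81, 9.90 and 10.23 in control, adenine and AICAR fibroblasts and 7.41, 6.49 and 9.13 in adipocytes. The states did not overlap, and the fall was 2.31 (SE 0.42, limma adjusted p = 0.03). Ccl2 and Ccl7 are separated by 8259 bases in the RefSeq annotation.

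Ccl8 had the largest fall of the family. It stood at 7.70, 8.63 and 8.85 in control, adenine and AICAR fibroblasts and at 3.83, 3.52 and 4.53 in adipocytes. The gap between the lowest fibroblast array and the highest adipocyte array was 3.17, and the fall was 4.43 (SE 0.25, limma adjusted p = 0.00263). The adipocyte values lie near the first quartile of all probe sets on an array (4.05 to 4.13), so the size of this fold depends on the background correction.

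Ccl11, the eosinophil attractant eotaxin, stands between Ccl7 and Ccl12 on the chromosome and did not pass the test of state (-0.58, SE 0.35, limma adjusted p = 0.34). Its signals were 6.31, 6.89 and 5.71 in control, adenine and AICAR fibroblasts and 5.96, 5.27 and 5.95 in adipocytes. The states overlapped, since the AICAR fibroblasts lay below the control and AICAR adipocytes. Ccl12, whose protein also attracts monocytes, stayed between 3.26 and 3.74 on all 6 arrays and Ccl1 between 4.4 and 4.93, so 4 of the 6 genes in the group were above the median of gene means.

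A second group on chromosome 11 (chr11:83525778-83664683) holds Ccl5, Ccl9, Ccl6, Ccl3 and Ccl4. Ccl5 attracts T cells and monocytes and is a known target of NF-kB and interferon regulatory factors. It stood at 8.72, 7.51 and 9.65 in control, adenine and AICAR fibroblasts and at 6.86, 6.62 and 8.40 in adipocytes. Within each medium the adipocytes were lower, but the states overlapped, because AICAR adipocytes lay above adenine fibroblasts. The fall was 1.33 (SE 0.21, limma adjusted p = 0.0236).

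Ccl9, a CC ligand of myeloid cells, had signals of 9.15, 9.39 and 8.98 in control, adenine and AICAR fibroblasts and of 6.98, 7.33 and 8.28 in adipocytes. The states did not overlap, with a gap of 0.70, and the fall was 1.65 (SE 0.31, limma adjusted p = 0.0325). The call was lost without the adenine pair (-1.44, limma adjusted p = 0.0683). With AICAR the difference between states was -0.70, under the 2-fold threshold, against -2.18 in control medium and -2.06 with adenine.

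Ccl6, Ccl3 and Ccl4 lay below the median of gene means. Ccl6, a CC ligand whose gene adjoins Ccl9, stood at 6.04, 5.71 and 4.33 in control, adenine and AICAR fibroblasts and at 4.62, 5.01 and 5.68 in adipocytes. Its difference between states was -1.42 in control medium, -0.70 with adenine and 1.35 with AICAR, so the direction was not shared by the media. Ccl3, an attractant of monocytes and lymphocytes, lay between 3.52 and 3.90 on 5 arrays and at 5.13 in AICAR fibroblasts. The RefSeq spans of Ccl3 and Ccl4 overlap, so their signals may not be separate. Ccl4 lay between 4.55 and 4.91.

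The CXC ligands that attract neutrophils through the receptor Cxcr2 form a group on chromosome 5 (chr5:90759298-90905938) in the order Cxcl5, Cxcl3, Cxcl15, Cxcl1 and Cxcl2. Cxcl5 stood at 7.57, 8.18 and 8.98 in control, adenine and AICAR fibroblasts and at 4.84, 4.78 and 6.01 in adipocytes. All adipocyte arrays were below all fibroblast arrays by at least 1.56. The control and adenine adipocyte signals lay below the array medians (5.41 to 5.49), where a fold depends on the background correction as well. The fall was 3.03 (SE 0.18, limma adjusted p = 0.00293).

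Cxcl1 differed less between the states. Its signals were 7.22, 7.45 and 8.89 in control, adenine and AICAR fibroblasts and 6.75, 6.61 and 7.67 in adipocytes, and the states overlapped because AICAR adipocytes lay above control and adenine fibroblasts. The fall was 0.85 (SE 0.19, limma adjusted p = 0.0461), and the call was lost without any single pair of arrays (limma adjusted p = 0.129 when the control arrays were left out, 0.125 for the adenine arrays and 0.086 for the AICAR arrays). Cxcl2 lay between 3.04 and 3.48, Cxcl3 between 3.65 and 3.95 and Cxcl15 between 2.76 and 3.38 on all 6 arrays.

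RefSeq promoter windows of 300 bases (250 before and 50 after the annotated start, GRCm38.p6) were given for 23 of the 34 members, 8 of them among the 13 brighter ones. They were searched on both strands for the NF-kB consensus site, for the interferon-stimulated response element (GAAA, any 2 bases and GAAA again) and for the AP-1 site TGANTCA. Ccl2, Ccl5, Ccl7 and Cxcl5 were among the members without a window and were not searched. The 120 bases before the start are shown for Cxcl1, Cxcl2 and Cxcl3, since these neighbours share a promoter motif and differ in whether they were above the median of gene means, with the NF-kB match in capitals (chr5:90891125-90891244, chr5:90903779-90903898 and chr5:90785981-90786100, all on the plus strand).
Cxcl1: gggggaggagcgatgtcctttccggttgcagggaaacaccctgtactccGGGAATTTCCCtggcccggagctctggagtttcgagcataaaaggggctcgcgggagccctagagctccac
Cxcl2: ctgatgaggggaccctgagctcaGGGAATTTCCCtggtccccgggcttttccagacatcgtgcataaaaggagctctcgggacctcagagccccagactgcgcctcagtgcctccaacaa
Cxcl3: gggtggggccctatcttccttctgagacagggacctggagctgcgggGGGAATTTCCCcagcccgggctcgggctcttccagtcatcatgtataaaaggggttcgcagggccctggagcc

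The same 11 capital letters stand in all 3 windows, where the consensus matches on either strand at places that overlap. The first matched base lies 71 bases before the start in Cxcl1, 97 in Cxcl2 and 73 in Cxcl3. Such a match was found in the windows of 6 members (Ccl9, Ccl20, Cxcl1, Cxcl2, Cxcl3 and Cxcl10), 3 of the 8 brighter and 3 of the 15 dimmer members with a window, and in 4.51% of all 32851 windows. A match of letters is a description of the sequence and no evidence that the factor binds there in these cells.

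Cxcl10 attracts T cells through Cxcr3 and is a classical interferon target. It lies on chromosome 5 between Cxcl9 and Cxcl11 (chr5:92321331-92363296), which attract the same cells. Its signals were 7.67, 6.88 and 7.10 in control, adenine and AICAR fibroblasts and 5.14, 5.38 and 6.03 in adipocytes. The states did not overlap, and the fall was 1.70 (SE 0.29, limma adjusted p = 0.027). As for Cxcl5, the control and adenine adipocyte signals were below the array medians. Cxcl9 stayed between 4.63 and 5.18 and Cxcl11 between 4.2 and 4.89. The 220 bases before the Cxcl10 start are shown because this was the only window of a member with matches to all 3 motifs, in capitals (chr5:92348890-92349109, minus strand).
Cxcl10: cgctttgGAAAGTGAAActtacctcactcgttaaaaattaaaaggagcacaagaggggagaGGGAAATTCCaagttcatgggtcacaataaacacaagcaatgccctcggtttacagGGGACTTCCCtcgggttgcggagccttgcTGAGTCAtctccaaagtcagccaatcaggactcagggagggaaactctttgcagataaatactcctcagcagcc

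Reading towards the start, the capitals are the interferon element, 2 NF-kB matches and the AP-1 site. The interferon element was found in 3 members (Ccl19, Cxcl10 and Cxcl14) and in 3.44% of all windows, and the AP-1 site in 4 members (Ccl9, Ccl28, Cxcl9 and Cxcl10) and in 7.81%. Ccl9 held an AP-1 and an NF-kB match in its last 120 bases (chr11:83578637-83578756, minus strand), and Ccl8 (chr11:82115065-82115184, plus strand), the member with the largest fall, held none of the 3 motifs in its window.
Ccl9: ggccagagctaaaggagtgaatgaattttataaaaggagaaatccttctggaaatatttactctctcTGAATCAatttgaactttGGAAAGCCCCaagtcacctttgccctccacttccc
Ccl8: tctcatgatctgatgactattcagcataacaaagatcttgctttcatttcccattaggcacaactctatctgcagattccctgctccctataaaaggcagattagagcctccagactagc

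Cxcl13, which guides B cells through Cxcr5, was the only tested member that rose. It stood at 5.04, 4.88 and 4.30 in control, adenine and AICAR fibroblasts and at 9.71, 8.97 and 8.79 in adipocytes. The gap between the states was 3.75, and the rise was 4.42 (SE 0.17, limma adjusted p = 0.00146). The fold between the control arrays was 25.6. The fibroblast values lie below the array medians, so this size depends on the background correction as well. Cxcl13 lies alone among the members on chromosome 5 (chr5:95956939-95961068), and no match to the 3 motifs was found in its window, of which the 120 bases before the start are shown beside those of the genes that fell (chr5:95956819-95956938, plus strand).
Cxcl13: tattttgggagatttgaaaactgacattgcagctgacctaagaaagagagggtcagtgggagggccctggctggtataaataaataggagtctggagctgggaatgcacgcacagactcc

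Cxcl12, the ligand of Cxcr4 that retains blood-forming cells in the bone marrow, was bright in both states. Its signals were 9.71, 10.10 and 9.94 in control, adenine and AICAR fibroblasts and 9.41, 8.87 and 9.13 in adipocytes. All adipocyte arrays were lower, with a gap of 0.30, but the difference did not pass the test (-0.78, SE 0.21, limma adjusted p = 0.0739). It was at least 2-fold only with adenine in both states (-1.24).

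Ccl25 and Cx3cl1 did not pass either. Cx3cl1, a chemokine anchored in the cell membrane, stood at 6.63, 6.78 and 6.0 in control, adenine and AICAR fibroblasts and at 6.90, 6.34 and 6.13 in adipocytes, and the states overlapped (-0.01, SE 0.19, limma adjusted p = 0.97). Ccl25, a thymus and gut chemokine, stood at 7.10, 7.07 and 7.73 in fibroblasts and at 7.46, 7.84 and 7.39 in adipocytes (0.26, SE 0.24, limma adjusted p = 0.524). Its 2 probe sets disagreed, with a difference between the control arrays of 0.36 on the one used and -0.33 on the other.

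Counting arrays that do not overlap, 10 of the 34 members had all 3 adipocyte arrays below all 3 fibroblast arrays, against 13.1% of all genes, and 2 had them all above, against 14.6%. Among the 13 brighter members 7 were below (19.9% of tested genes) and 1 above (22.1%). The others were Cxcl3, Cxcl11 and Cxcl16 below and Ccl28 above, dim genes with ranges of 0.31, 0.69, 0.73 and 0.69 over the 6 arrays.

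The second comparison set adenine fibroblasts against untreated ones. Of the 34 members 0 were at least 2-fold higher (0.0903% of all genes, and 0.0802% of the tested ones) and 1 was at least 2-fold lower (0.0451% and 0.0502%). That gene was Ccl5, with 7.51 against 8.72 (-1.21, or 2.31-fold lower). Next in size were Ccl8 at 0.93, Cxcl10 at -0.79, Cxcl5 at 0.61, Ccl11 at 0.59 and Ccl2 at 0.45, all under the 2-fold threshold. Of the 13 brighter members 9 were above 0 and 4 below, and 47.8% of tested genes were above 0. Their median was 0.23 beside -0.01 over all tested genes, and that of all 34 members was 0.01.

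AICAR fibroblasts had 4 of 34 members at least 2-fold higher than the control, against 1.08% of all genes, and 1 at least 2-fold lower, against 2.12%. Of the 13 brighter members 3 were higher and 0 lower, against 1.7% and 3.69% of tested genes. Cxcl1 was higher by 1.67 (8.89 against 7.22), Cxcl5 by 1.42 and Ccl8 by 1.14, and among the dim genes Ccl3 was higher by 1.61 and Ccl6 stood at -1.71. Ccl5 at 0.93 and Ccl2 at 0.91 were just under the threshold and passed it after quantile normalization (1.03 and 1.02). Ccl7 was at 0.42 and Ccl9 at -0.17. Cxcl13 (-0.74), Cx3cl1 (-0.63), Ccl11 (-0.60) and Cxcl10 (-0.57) were on the lower side. The median of the 13 brighter members was 0.42 beside -0.03 over all tested genes, and that of all 34 was 0.17 beside 0.07 over all genes. In the same comparison 5 of 14 fibroblast markers were at least 2-fold lower and 1 higher (median -0.41), against 3.69% and 1.7% of tested genes. Of 12 adipocyte markers 1 was at least 2-fold higher and 0 lower (median 0.08). The part of these marker changes in the chemokine values was not tested.

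**Figure D3:**
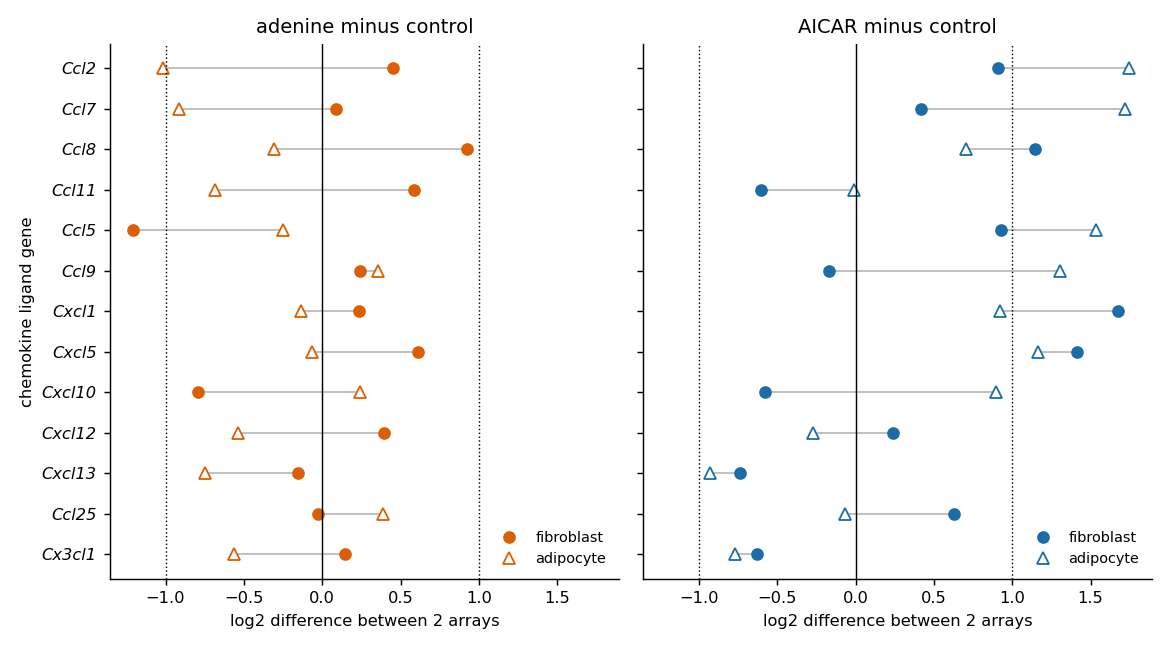
The log2 difference of the adenine array (left) and the AICAR array (right) from the control array of the same state, for the 13 brighter chemokine ligand genes, with circles for fibroblasts, triangles for adipocytes and dotted lines at a 2-fold difference. With AICAR the triangles of Ccl2, Ccl7, Ccl5, Ccl9 and Cxcl5 lie beyond the upper line, and with adenine only that of Ccl2 lies beyond the lower one.

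Adipocytes given adenine during induction had 1 of 34 members at least 2-fold lower than untreated adipocytes (1.29% of all genes, and 2.4% of the tested ones) and 0 at least 2-fold higher (0.843% and 1.24%). Ccl2 was the lower gene, with 5.27, a signal below the array medians, against 6.29 (-1.02). It was at -0.98 after quantile normalization and at -0.92 after median centring, below the 2-fold threshold. Ccl7 followed at -0.91, Cxcl13 at -0.75, Ccl11 at -0.68, Cx3cl1 at -0.56 and Cxcl12 at -0.54. Ccl25 (0.39), Ccl9 (0.35) and Cxcl10 (0.24) were the 3 brighter members above 0. The median of the 13 was -0.31 beside 0.02 over all tested genes, and that of all 34 was -0.12 beside -0.07 over all genes. In the same comparison 12 of 14 fibroblast markers were at least 2-fold lower (median -1.51), against 2.4% of tested genes. Of 12 adipocyte markers 7 were at least 2-fold higher (median 1.08), against 1.24%. The part of this shift of the markers in the chemokine values was not tested.

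AICAR during induction went with higher values of several chemokine genes 3 days after its withdrawal. Of the 34 members 6 were at least 2-fold higher than in untreated adipocytes, where 0.341% of all genes were, and 0 were at least 2-fold lower (0.221%). Of the 13 brighter members 5 were higher and 0 lower, against 0.612% and 0.381% of tested genes. Ccl2 was higher by 1.75 (8.03 against 6.29, or 3.36-fold), Ccl7 by 1.72, Ccl5 by 1.53, Ccl9 by 1.30, Cxcl5 by 1.16 and the dim Ccl6 by 1.05. Cxcl1 (0.92), Cxcl10 (0.89) and Ccl8 (0.70) were higher by less than 2-fold. On the other side stood Cxcl13 (-0.93), Cx3cl1 (-0.77) and Cxcl12 (-0.27). The median of the 13 brighter members was 0.89, where that of all tested genes was -0.01 and 97.5% of them lay below 0.51. The median of all 34 was 0.01 beside -0.04 over all genes. In this comparison 10 of 14 fibroblast markers were below 0 and 4 above (median -0.20). Of 12 adipocyte markers 7 were above 0 and 5 below (median 0.03). Only 1 of each list was at least 2-fold apart, both against the larger number of their list. These were Acta2, a smooth muscle actin of contractile fibroblasts, at 1.95 and Retn, the adipocyte hormone resistin, at -1.13.

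The compounds were set side by side in each state, against the same control array, which both differences share. Ccl5 stood at -1.21 with adenine and 0.93 with AICAR in fibroblasts and at -0.25 and 1.53 in adipocytes. Ccl2 stood at 0.45 and 0.91 in fibroblasts and at -1.02 and 1.75 in adipocytes, and Ccl7 at 0.09 and 0.42 and at -0.91 and 1.72. Cxcl1 stood at 0.23 and 1.67 in fibroblasts and at -0.13 and 0.92 in adipocytes. Each of these 4 genes was higher with AICAR than with adenine in both states. Cxcl13 was below its control in all 4 cases, with -0.15 and -0.74 in fibroblasts and -0.75 and -0.93 in adipocytes.

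The difference between the states in the AICAR response had no test. For Ccl9 the adipocyte difference exceeded the fibroblast one by 1.47, for Cxcl10 by 1.47 and for Ccl7 by 1.30. For Cxcl1 the fibroblast difference was the larger one (adipocyte minus fibroblast -0.75). With adenine the corresponding value of Ccl2 was -1.47 (-1.02 against 0.45).

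The 21 dimmer members are described by their ranges. Ccl19, a ligand of Ccr7, stayed between 5.29 and 5.76 and had 5 probe sets, and Cxcl14 stayed between 4.98 and 5.42. Apart from Ccl3, Ccl6, Ccl19 and Cxcl14, the other 17 lay between 2.76 and 5.35, with a largest difference of 0.66 in any of the 7 comparisons. They include the dendritic cell and T helper cell chemokines Ccl17 and Ccl22, the mucosal genes Ccl20 and Ccl28 and the lymphocyte gene Xcl1. No detection calls were used, so it is not known whether these genes were expressed.

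**Figure D4:**
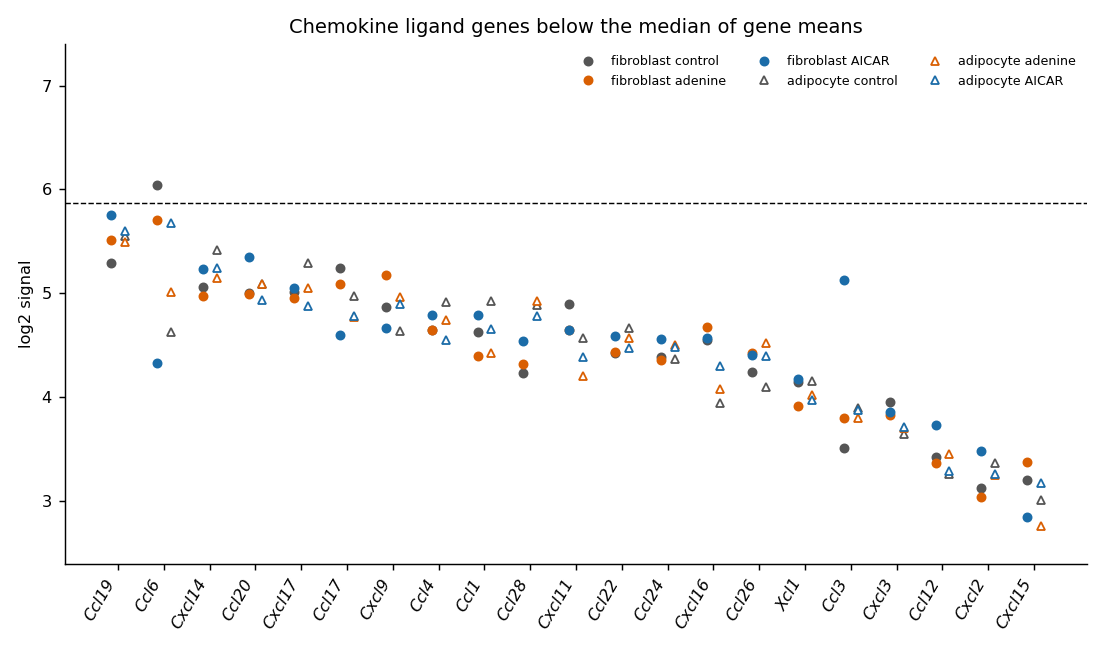
The log2 signal on each of the 6 arrays of the 21 chemokine ligand genes below the median of gene means (dashed line, 5.87), ordered by their mean, with filled circles for fibroblasts and open triangles for adipocytes. Ccl6 spreads from 4.33 to 6.04, and Ccl3 stands at 5.13 in AICAR fibroblasts and at or below 3.90 elsewhere.

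Genes around the ligands were taken from lists. Of 23 chemokine receptor genes analysed, 0 were above the median of gene means. The log2 of their summed signal was 8.86 to 8.99 in fibroblasts and 8.83 to 9.0 in adipocytes, so the states overlapped. Ccr2, the receptor of Ccl2, lay between 2.46 and 2.87 and Cxcr5, the receptor of Cxcl13, between 3.81 and 4.05. The scavenging receptor Ackr3, which removes Cxcl12, lay between 4.35 and 5.30.

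Of 21 tested genes of the NF-kB pathway, 3 fell in adipocytes in the additive model and 0 rose. Of all tested genes 5.37% fell and 5.22% rose. The 3 list genes that fell encode receptors of microbial products, Tlr2 (-2.26, limma adjusted p = 0.00922), Tlr3 (-2.10, limma adjusted p = 0.00883) and Tlr4 (-0.87, limma adjusted p = 0.0388). The NF-kB subunits Rela (-0.37) and Relb (-0.39) did not pass. The inhibitor gene Nfkbia was higher in control adipocytes by 1.26 and did not pass either (0.79, limma adjusted p = 0.13). With AICAR in fibroblasts 16 of the 21 were above 0 (median 0.37), where 47.5% of tested genes were, and Bcl3 was at 1.08. With AICAR in adipocytes 12 were above 0 (median 0.05), where 47.4% of tested genes were, with 0 at least 2-fold apart.

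Of 15 tested genes of interferon signalling, 4 fell and 1 rose in adipocytes, where 5.37% and 5.22% of all tested genes did. Those that fell were Stat2 (-2.27), Irf7 (-1.87) and Irf9 (-1.86), which carry the interferon signal to the nucleus, and the interferon gamma receptor gene Ifngr2 (-0.96). The other receptor gene, Ifngr1, rose by 0.99. The limma adjusted p of these 5 lay between 0.0097 and 0.0438. With AICAR in adipocytes 9 of the 15 were above 0 and 6 below (median 0.04), where 47.4% of tested genes were above 0. Irf7 (1.32) and Irf9 (1.29) were at least 2-fold higher than in the control and Stat2 was at 0.91. Cxcl10 was at 0.89 and Ccl5 at 1.53. In AICAR fibroblasts 11 of the 15 were above 0 and 4 below (median 0.21), where 47.5% of tested genes were above 0. Irf7 was at -0.84 there and Cxcl10 at -0.57, while Ccl5 was at 0.93. A link between this list and the chemokine values was not tested.

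Of 15 tested proteases and binding proteins that cut or hold chemokines, 5 fell in adipocytes (5.37% of all tested genes) and 0 rose (5.22%). The 5 included the collagenase Mmp13 (-2.89), cathepsin K (Ctsk, -2.31) and the heparan sulphate carrier Sdc3 (-1.80). Mmp13 stood at 5.75, 5.25 and 6.01 in control, adenine and AICAR adipocytes, with a mean below 5.87. It passed the filter through the fibroblast arrays, so a fall was built into its selection. The model counts of the lists were made only among genes that passed the filter. Mmp2, which is known to trim Ccl7, did not pass (-0.85, limma adjusted p = 0.101).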

How the data were processed

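Log2 probe set signals were used as deposited. Per the submitters' processing notes, the tool was Transcriptome Analysis Console 1.0.0.234 and the build mm10. How background was corrected and arrays were normalized was not given in the sources used here. Array medians were 5.41 to 5.49, and the number of arrays limits precision. Groups came from the labels.

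The platform annotation gave 1 symbol to 21789 of 35556 probe sets, several to 1621 and none to 12146. All 34 members matched RefSeq by Entrez ID with the same symbol. The 9969 genes whose mean reached the median of gene means were tested. Differences between 2 arrays were counted at 2-fold in 7 comparisons. State was tested in limma 3.58.1 (R 4.3.3) with medium as a block (3.64 prior degrees of freedom), Benjamini-Hochberg at 0.05. The model was first run on simulated data that held state effects and independent noise but no medium effect. Those data could not show how the model behaves when compound effects differ between the states. P-values measure only the spread between these arrays. Named genes were every tested member, the 3 brightest others and any at least 2-fold apart, plus up to 2 at each end of a list, the receptors of described ligands and a few other list genes chosen after their values were seen. The members and lists were chosen with earlier results of these data known. Alternatives were quantile normalization, median centring, other filters, probe set means, a 1.5-fold threshold, an intensity trend and leaving out a pair of arrays.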

Additional observations from a re-analysis of the deposited data

Results flagged for a closer look

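Ccl11 and Ccl6 stood on opposite sides of their control in the 2 states by at least 1.5-fold each way. Ccl11 was at 0.59 with adenine in fibroblasts and at -0.68 with adenine in adipocytes. Ccl6 was at -1.71 with AICAR in fibroblasts and at 1.05 with AICAR in adipocytes, at signals of 4.33 and 5.68 against controls of 6.04 and 4.62. Each value is a difference of 2 single arrays, and the difference between the states was not tested.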

How the results depend on the processing

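Of 273 values of the 13 brighter members under quantile normalization, median centring or probe set means, 269 stayed on their side of the 2-fold threshold, 2 fell below it and 2 passed it. None of those at least 2-fold apart changed sign, and 4 values did that were at most 0.07 from 0. Of the 13 members all but Ccl25 had 1 probe set. Their values under probe set means could not change, and they count among the 269. With a filter at the 75th percentile, which leaves 5 members, the counts of lower members in adipocytes were 4 in control medium, 4 with adenine and 3 with AICAR. The counts of higher ones were 0 in all 3, and 0 were higher with AICAR in fibroblasts. The additive model then called 4 lower and 0 higher, where 5.28% and 6.86% of the 4985 genes were called. Without a filter 2 were higher in adipocytes with AICAR and 1 was lower with AICAR in fibroblasts. Quantile normalization gave 5 higher with AICAR in fibroblasts and 0 lower with adenine in adipocytes, and median centring gave 0 there too. At 1.5-fold, 2 were higher in adipocytes with adenine. In fibroblasts 3 were then higher and 2 lower with adenine, and 6 higher and 3 lower with AICAR. In adipocytes 4 were lower with adenine, and 8 were higher and 2 lower with AICAR. Shares of all genes were not counted at 1.5-fold, nor at 2-fold under the stricter filter or another normalization. These member counts therefore cannot be set against the rate of all genes. Without the control pair the additive model called 0 members in either direction (2095 genes passed 0.05 in limma before adjustment). Quantile normalization or centring moved the median of all tested genes by at most 0.10. The labels carry no replicate numbers, and the only pairing is by medium, which is a block in the additive model. The dim signals of Ccl8, Cxcl5 and Cxcl10 in adipocytes, Ccl2 and Ccl11 in adenine adipocytes and Cxcl13 in fibroblasts limit the precision of their folds.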
